A study of Bos taurus with 12 samples.

Results

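The nuclear-encoded genes of the mitochondrial respiratory chain and ATP synthase were followed in cultured cattle (Bos taurus) precursor adipocytes. Members were taken by name: every gene of the count table whose symbol starts with NDUF, UQCR or ATP5, with COX4 to COX8, or is SDHA, SDHB, SDHC or SDHD. The rule found 94 of 29240 genes, and 90 of them passed the filter on low counts that left 16300 genes for testing. By complex these are 37 genes of complex I, 8 NDUFAF assembly factors of complex I, 4 of complex II, 8 of complex III, 18 of complex IV and 19 of ATP synthase (complex V). NDUFA4 is counted with complex IV, to which its protein is now assigned, and COX7ALP1, an annotated pseudogene, is also placed there. COX6A2, COX6C and COX8C were not analysed here.

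Cells were transfected and collected 48 h later, and each of the 4 groups holds 3 libraries. The si group received an interfering RNA whose target the labels do not name, and si_NC is its negative control. The OE group received the plasmid pcDNA3.1 carrying HGFAC, which encodes the activator of hepatocyte growth factor, and OE_NC received the pcDNA3.1 control. Nothing in the labels states whether replicates came from separate cultures. The p-values therefore measure only how these libraries spread, and that spread may be technical.

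The respiratory chain passes electrons from NADH through complex I, and from succinate through complex II, to ubiquinone, complex III, cytochrome c and complex IV, which reduces oxygen. Complexes I, III and IV pump protons out of the matrix, and ATP synthase uses their return to make ATP. Complex II is built wholly from nuclear genes. The other complexes join nuclear subunits, which are imported, to a few subunits read from mitochondrial DNA. In fat tissue this machinery supplies the ATP and redox balance for lipid synthesis, and in thermogenic fat the proton gradient is spent as heat.

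Counts assigned to genes came to between 28944730 and 42703660 per library. HGFAC stood at 138 to 190 CPM (counts scaled to TMM-normalised library size) in OE, against 0.27 to 0.53 CPM in OE_NC. It stood at 0.53 to 0.84 CPM in si and 0.74 to 0.93 CPM in si_NC. The 10 stromal and preadipocyte markers summed to 13674 to 23024 CPM per library, and the 6 markers of mature fat cells to 19.2 to 31.8 CPM. Most of the stromal sum came from COL1A1, COL1A2 and VIM, which averaged 3761, 7200 and 5940 CPM. Of the same list, THY1 averaged 15.9 CPM, NT5E 18.4 CPM and DLK1 0.069 CPM. UCP1, the uncoupling protein that defines thermogenic fat, averaged 0.012 CPM. Of 5 skeletal muscle markers, MYOD1 averaged 0.043 CPM and MYOG 0.006 CPM, while DES averaged 569 CPM. In bulk RNA, fewer cells of a type and less RNA per cell cannot be told apart.

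Respiratory chain genes were highly expressed and varied widely within each complex. The 90 tested members had a median level per length of 39.3 RPKM (counts scaled to exon length and library total), against 2.94 RPKM over all tested genes. Their mRNAs were short, with a median summed exon length of 830.5 bases against 2923 bases. Together the 94 genes took 0.837 ± 0.059 percent of gene counts in si and 0.877 ± 0.043 percent in si_NC, and 0.832 ± 0.018 percent in OE and 0.902 ± 0.081 percent in OE_NC (mean ± SD, n = 3 each). The si libraries (0.769 to 0.877 percent) overlapped those of si_NC (0.828 to 0.904 percent). The OE libraries (0.821 to 0.852 percent) lay just below those of OE_NC (0.854 to 0.996 percent), whose top value came from replicate 1.

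In complex I, the median member stood at 30.7 RPKM. The highest was NDUFS4, an accessory subunit of the NADH-oxidising module, at 247 RPKM, and the lowest NDUFC2, an accessory subunit of the membrane arm, at 3.30 RPKM. Of the core subunits that bind flavin or iron-sulphur clusters, NDUFV2 lay above that median at 42.9 RPKM. The others lay below it, with 24.1 RPKM for NDUFV1, 20.2 RPKM for NDUFS1, 17.7 RPKM for NDUFS7 and 12.9 RPKM for NDUFS8. Among the assembly factors, which build complex I and leave it, NDUFAF2 was highest at 54.2 RPKM and NDUFAF3 lowest at 1.08 RPKM.

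Complex II ranged least, from 9.98 RPKM for the membrane anchor SDHD to 68.8 RPKM for the iron-sulphur subunit SDHB, with the flavoprotein SDHA at 32.8 RPKM. In complex III the supernumerary subunit UQCRB stood at 970 RPKM, while UQCRFS1, the Rieske iron-sulphur protein of the catalytic core, stood at 13.7 RPKM. In ATP synthase, ATP5IF1, which blocks the reverse, ATP-splitting reaction, was highest at 950 RPKM. It was followed by ATP5F1A, the alpha subunit of the catalytic head, at 499 RPKM. The c ring genes ATP5MC1, ATP5MC2 and ATP5MC3, which encode the same mature subunit c behind different import signals, stood at 42.2, 33.0 and 17.7 RPKM. ATP5S, coupling factor B, was lowest at 1.02 RPKM.

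Complex IV spanned the widest range, from 1902 RPKM for the small membrane subunit COX7C to 0.289 RPKM for COX4I2 among tested members. COX4I2 is the lung- and hypoxia-associated isoform of subunit IV, and its ubiquitous counterpart COX4I1 stood at 218 RPKM. The muscle isoform COX7A1 was at 1.81 RPKM and the widely expressed COX7A2 at 54.6 RPKM. COX7B2, the testis isoform, was at 0.50 RPKM and COX7B at 34.0 RPKM. COX6B2, another testis isoform, was at 0.163 RPKM and COX6B1 at 58.4 RPKM. NDUFA4L2 was at 0.173 RPKM and NDUFA4 at 44.2 RPKM. COX6A1 stood at 607 RPKM. For subunit VIII both isoforms were low, COX8A at 2.83 RPKM and the muscle isoform COX8B at 0.215 RPKM. COX6B2, COX8B, NDUFA4L2 and COX7ALP1, with 0 to 16 counts per library, were the 4 members that were not tested.

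**Figure D1:**
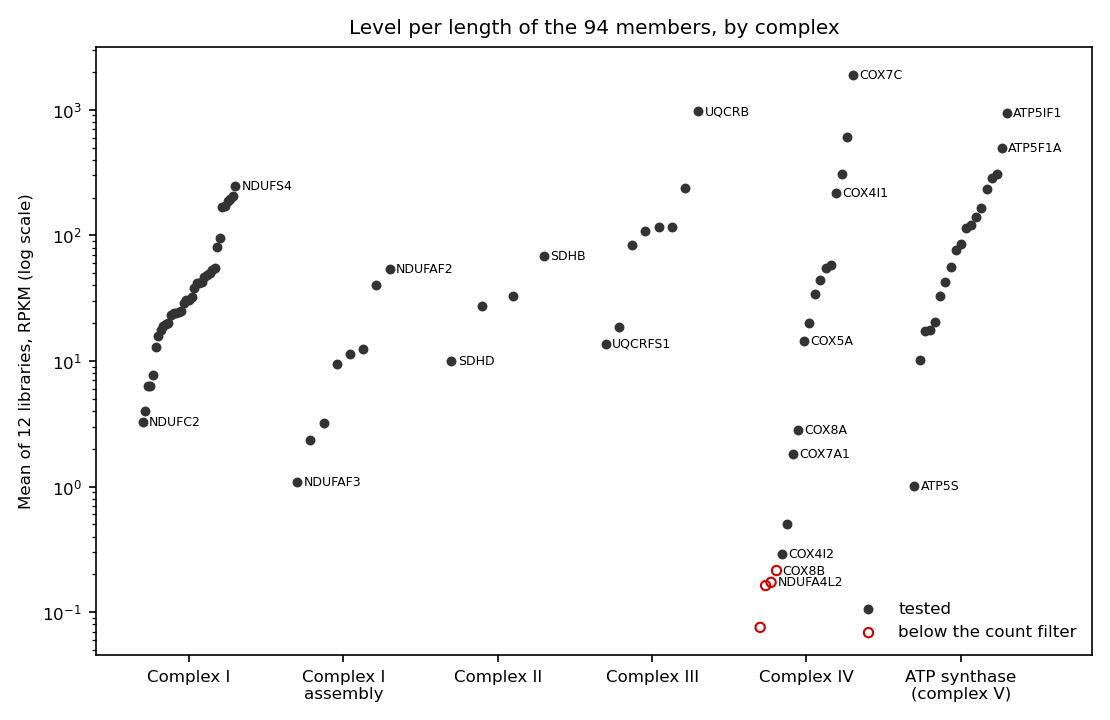
Mean level per length of the 94 members over the 12 libraries (vertical axis, RPKM, log scale), grouped by complex along the horizontal axis and sorted within it. Open circles are the 4 members under the count filter. COX7C (1902 RPKM), UQCRB (970 RPKM) and ATP5IF1 (950 RPKM) top their complexes, and COX4I2 (0.289 RPKM) is the lowest tested member.

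Members moved together from library to library, and 3 libraries stood apart. OE_NC replicate 1 was the highest of the OE_NC libraries in 81 of 90 members (90.0 percent, against 38.7 percent of all tested genes). In si, replicate 3 was the lowest in 65 members (72.2 percent, against 41.7 percent of all genes), and in si_NC replicate 2 was the lowest in 70 (77.8 percent, against 39.2 percent). The median member deviated from its 12-library mean by 0.30 log2 units in OE_NC replicate 1, by −0.12 in si replicate 3 and by −0.10 in si_NC replicate 2, and by −0.06 to 0.09 in the other 9 libraries.

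Other short genes moved with the members in the libraries that stood apart, though not in every library. Of the tested members 52 (57.8 percent) have summed exons under 1000 bases. The 1881 other genes that short had median deviations of 0.32 log2 units in OE_NC replicate 1, −0.17 in si replicate 3 and −0.16 in si_NC replicate 2, while longer genes stayed within −0.02 to 0.02 in every library. In OE_NC replicates 2 and 3 the short genes stood at 0.18 and 0.10, where members stood at 0.012 and 0.0098. In si_NC replicates 1 and 3 the short genes stood at −0.05 and −0.04, where members stood at 0.07 and 0.09. In si replicate 2 the values were 0.08 and −0.01. Both sets had the same sign in si replicate 1 and in the OE libraries. In OE, short nonmember genes had a median log2 change of −0.28 relative to OE_NC. An offset that removes each library's own trend with exon length was therefore tried, and its effect on the counts of called members is given with each contrast.

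**Figure D2:**
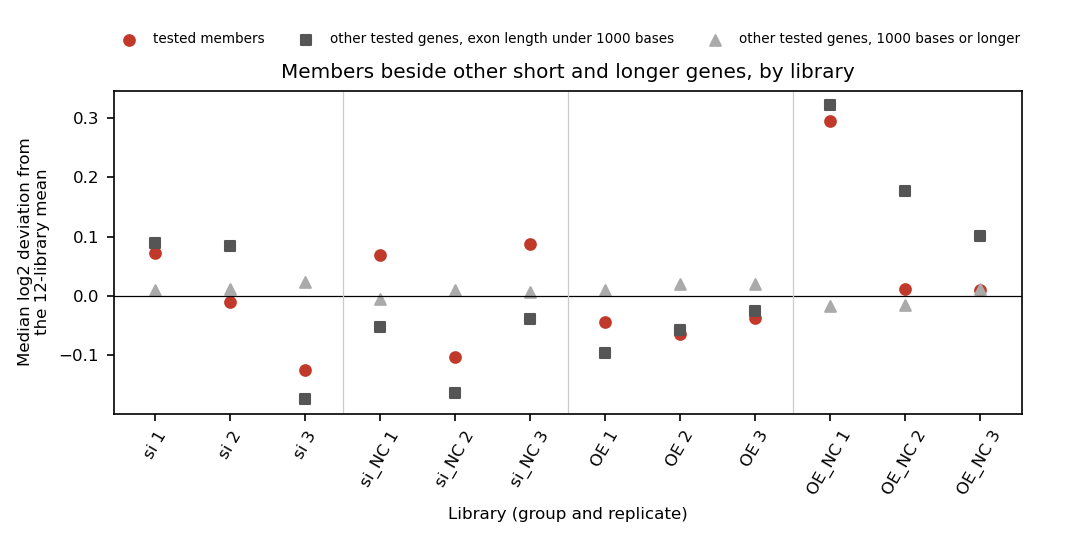
Median log2 deviation from the 12-library mean (vertical axis) of the 90 tested members, of 1881 other genes with exon length under 1000 bases and of longer genes, in each library (horizontal axis, by group). Members and other short genes are both highest in OE_NC replicate 1 (0.30 and 0.32), and both are negative in si replicate 3 (−0.12 and −0.17) and si_NC replicate 2 (−0.10 and −0.16).

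**Figure D3:**
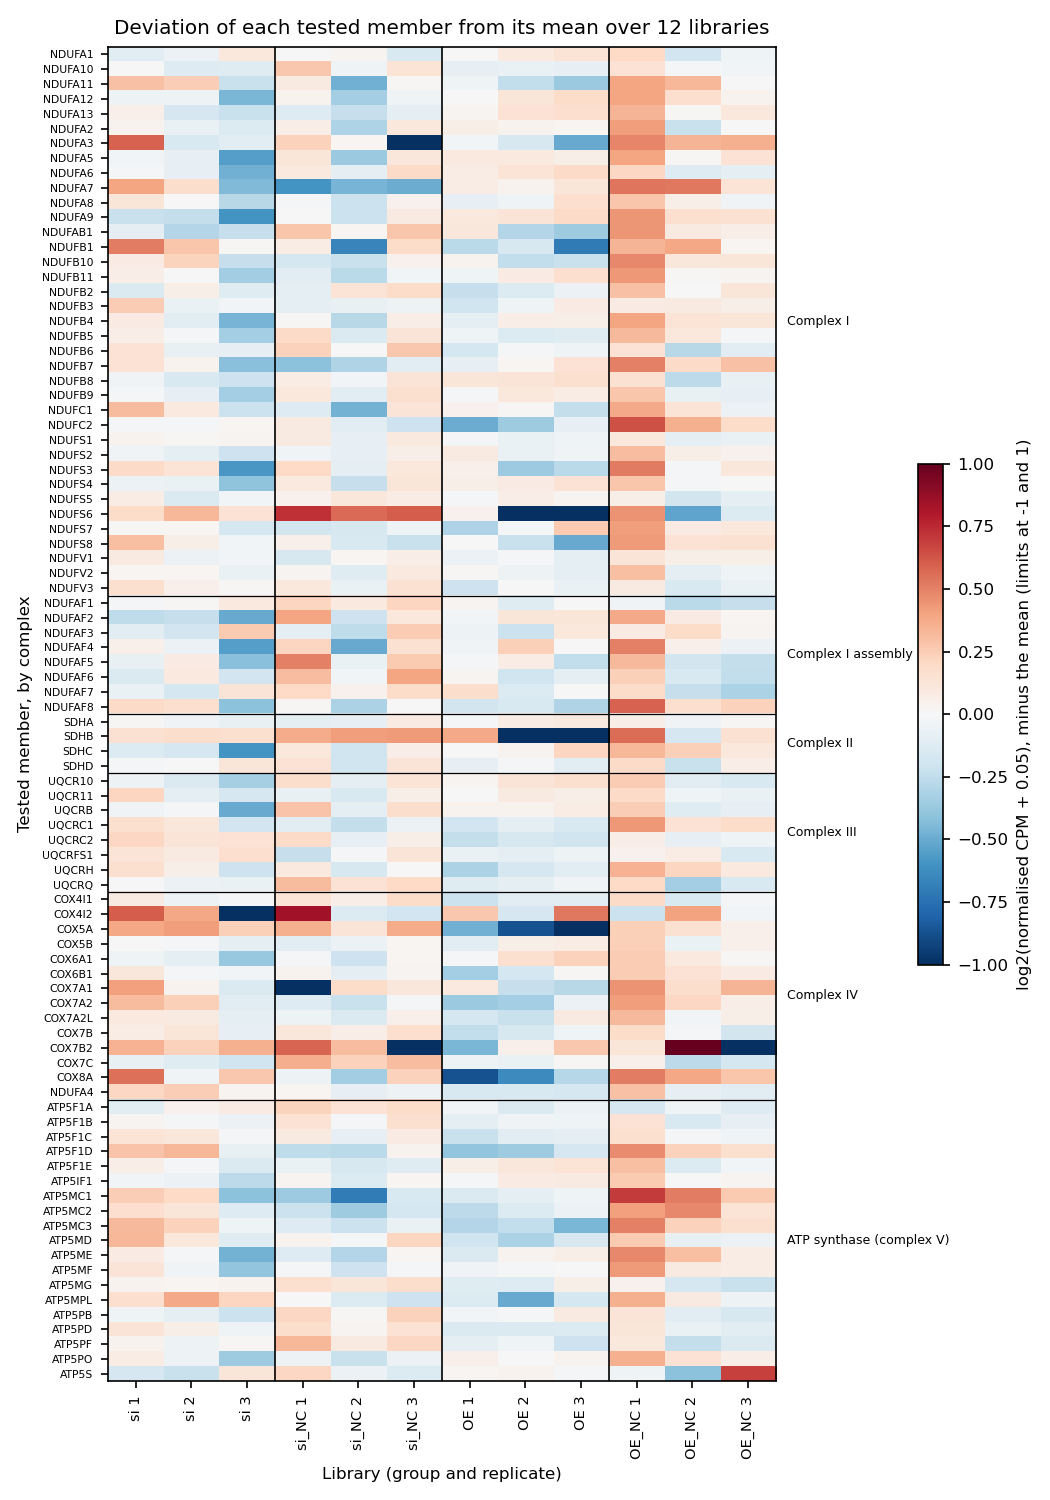
Each tested member (vertical axis, by complex) in each library (horizontal axis): the colour is its log2 normalised CPM (0.05 added) minus its mean over the 12 libraries, red above and blue below. The column of OE_NC replicate 1 is red in most complexes (it is the highest OE_NC library in 81 of 90 members), and COX5A is blue in the 3 OE libraries.

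With HGFAC overexpressed, 10 of the 90 tested members fell in OE relative to OE_NC and 0 rose, against 4.47 percent of all tested genes that changed (2.25 percent fell and 2.22 percent rose). These calls are from edgeR's quasi-likelihood test, Benjamini-Hochberg adjusted over the 16300 genes with a threshold of 0.05. By complex, 1 of 37 complex I genes, 2 of 8 in complex III, 3 of 14 in complex IV and 4 of 19 in ATP synthase fell, and 0 of 4 in complex II and 0 of 8 assembly factors, where 1 gene each had an unadjusted p under 0.05 (the Wald test of DESeq2 called 0 and 1, limma on log2(RPKM + 1) 0 and 0). The median member had a log2 change of −0.14, against −0.0046 over all tested genes, and 71 of 90 values were negative. At an unadjusted p under 0.05 there were 27 members, all lower in OE, where 22.9 percent of all genes passed in either direction. In 34 members every OE library lay below every OE_NC library, and in 0 above (16.0 percent and 17.4 percent of all genes).

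COX5A, a nuclear subunit that joins COX4I1 early in the assembly of complex IV, showed the firmest fall. Its levels were 8.20, 6.24 and 5.73 CPM in OE, against 13.5, 12.8 and 11.9 CPM in OE_NC. The log2 change was −0.92 ± 0.13 (estimate ± SE), or 0.529-fold (edgeR adjusted p = 0.00347). The 3 OE libraries lay below all other 9 libraries, since si held 15.0, 15.3 and 13.6 CPM and si_NC 14.7, 12.6 and 14.9 CPM. The call held without each of the 6 libraries in turn (log2 −1.10 to −0.81) and under the 11 other settings tried (log2 −0.98 to −0.66). COX5A lies on chromosome 21, at 33765092 to 33776139 on the plus strand in the coordinates of the count table, whose build is not given in the sources used here, and its exons sum to 828 bases.

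COX8A, the ubiquitous isoform of subunit VIII, had 0.721, 0.854 and 1.11 CPM in OE, against 1.96, 1.79 and 1.66 CPM in OE_NC (log2 −1.02 ± 0.24, edgeR adjusted p = 0.0353). These levels rest on 26 to 74 counts per library over the 4 groups. COX7A2 had 19.7, 20.2 and 24.5 CPM in OE, against 34.0, 29.5 and 26.7 CPM in OE_NC (log2 −0.49 ± 0.12, edgeR adjusted p = 0.0419). In both genes OE and OE_NC did not overlap. For COX7A2 the OE range also held 2 of the 3 si_NC libraries, at 23.3 and 21.8 CPM.

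All 3 c ring genes fell in OE. ATP5MC1 had 30.0, 31.0 and 32.2 CPM in OE, against 54.1, 47.5 and 39.8 CPM in OE_NC (log2 −0.60 ± 0.16, edgeR adjusted p = 0.0494). ATP5MC2 had 28.6, 31.2 and 32.9 CPM in OE, against 45.6, 47.8 and 37.7 CPM in OE_NC (log2 −0.50 ± 0.10, edgeR adjusted p = 0.0235). ATP5MC3 had 9.81, 10.2 and 8.78 CPM in OE, against 17.1, 14.2 and 13.5 CPM in OE_NC (log2 −0.64 ± 0.12, edgeR adjusted p = 0.0161). Each gene had its OE libraries below its OE_NC libraries. For ATP5MC1 the OE libraries lay above all 3 si_NC libraries and the OE_NC libraries above all other 9. For ATP5MC2 OE overlapped si_NC, and si replicate 1 lay inside the OE_NC range. For ATP5MC3 the OE libraries lay below all other 9. The genes lie on chromosomes 19, 5 and 2.

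ATP5F1D, the delta subunit of the central stalk that turns with the c ring, had 7.32, 7.52 and 8.56 CPM in OE, against 13.4, 11.3 and 10.7 CPM in OE_NC (log2 −0.60 ± 0.14, edgeR adjusted p = 0.0301). The alpha subunit ATP5F1A of the same F1 part differed by a log2 change of 0.04 ± 0.07 (edgeR adjusted p = 0.777), with 1051, 971 and 1030 CPM in OE and 952, 1038 and 981 CPM in OE_NC. OE and OE_NC did not overlap in ATP5F1D and overlapped in ATP5F1A. The inhibitor ATP5IF1 had a log2 change of −0.05 ± 0.09 (edgeR adjusted p = 0.788).

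In complex III, UQCRC1, a core protein facing the matrix, had 165, 177 and 170 CPM in OE, against 255, 208 and 215 CPM in OE_NC (log2 −0.40 ± 0.10, edgeR adjusted p = 0.0357). UQCRH, the hinge protein that contacts cytochrome c1, had 192, 213 and 222 CPM in OE, against 304, 278 and 256 CPM in OE_NC (log2 −0.42 ± 0.10, edgeR adjusted p = 0.036). In complex I, NDUFC2 had 1.47, 1.62 and 1.97 CPM in OE, against 3.27, 2.68 and 2.38 CPM in OE_NC (log2 −0.72 ± 0.18, edgeR adjusted p = 0.0404). In all of these the groups did not overlap, and OE_NC replicate 1 was the highest library of the contrast. UQCRH shares 19 of its 1015 exon bases with LRRC41 on the other strand.

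The complexes with no call had as their smallest p NDUFAF8 among the assembly factors and SDHB in complex II. NDUFAF8 had 23.9, 24.4 and 22.1 CPM in OE, against 41.0, 30.5 and 31.8 CPM in OE_NC (log2 −0.55 ± 0.15, edgeR adjusted p = 0.0521). SDHB had 92.6, 30.0 and 27.4 CPM in OE, against 105, 63.4 and 79.4 CPM in OE_NC (log2 −0.72 ± 0.33, edgeR adjusted p = 0.204). OE replicate 1 lay inside the OE_NC range for SDHB, while the other two OE libraries lay below every other library of the series. SDHA, its catalytic partner, had a log2 change of 0.04 ± 0.07.

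**Figure D4:**
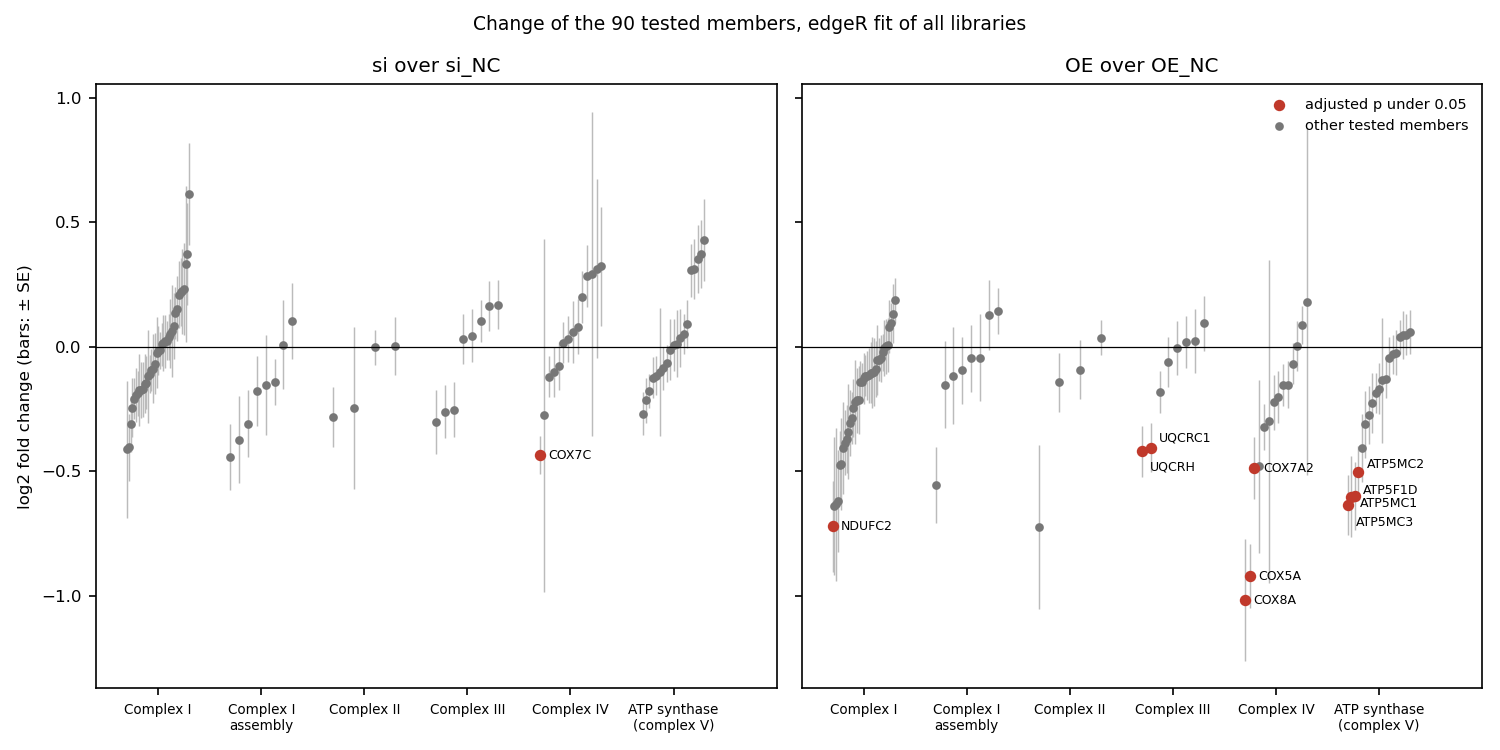
Log2 fold change with SE (vertical axis) of the 90 tested members in si over si_NC (left) and OE over OE_NC (right), by complex along the horizontal axis. Red points passed an adjusted p of 0.05: COX7C (−0.43) in si, and 10 members in OE, from UQCRC1 (−0.40) to COX8A (−1.02), all of them below 0.

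Apart from COX5A, the calls in OE changed with the libraries included and with the length offset. ATP5MC1 also lost its call in both limma fits and with a replicate block, and NDUFC2 with the block. Without OE_NC replicate 1, OE replicate 2, OE replicate 3 or OE_NC replicate 2, COX5A was the 1 member called. Without OE replicate 1 there were 4, and without OE_NC replicate 3 there were 10. In these smaller fits 0.113 to 1.34 percent of all genes were called, except without OE_NC replicate 3, where 4.54 percent were. Without the 3 libraries that stood apart, a choice made after seeing the data, 6 members rose and 12 fell in OE, where 12.9 percent of all genes were called. Of the 1881 other genes with exons under 1000 bases, 158 (8.40 percent) fell in OE and 7 rose, beside the 11.1 percent of members that fell. Among the members themselves the 10 called were about as long as the other 80 (median exon length 823 and 834 bases). With the length offset COX5A alone still fell (log2 −0.66 ± 0.12, edgeR adjusted p = 0.0136). Under that offset the median member stood at 0.042, and 10 other members rose in OE, among them COX7C (log2 0.41 ± 0.07), NDUFB8 (0.47 ± 0.08) and the inhibitor ATP5IF1 (0.27 ± 0.06). Of all tested genes 3.31 percent were called in OE with the offset, and 0.896 percent fell. The muscle markers summed to 713 to 743 CPM in OE and 517 to 589 CPM in OE_NC, nearly all of it DES, which rose (log2 0.42 ± 0.10, edgeR adjusted p = 0.0399). ACTA1, the other tested muscle marker, fell (log2 −0.68 ± 0.14, edgeR adjusted p = 0.0208). The part of these markers in the falls was not tested.

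In the 10 members that fell, OE_NC had the highest mean of the 4 groups in 9 and OE the lowest in 8. Of all 90 tested members, OE_NC was highest in 47 and OE lowest in 42. The 10 were picked for OE lying below OE_NC, which favours this order, so their counts are no separate evidence. Shares over all tested genes were not counted. Among these 10, COX5A and ATP5MC3 were the 2 whose OE libraries lay below all other 9 libraries, and NDUFC2 and ATP5MC1 the 2 whose OE_NC libraries lay above all other 9. The remaining called members reached neither pattern, with OE or OE_NC values inside the range of the interference libraries. Neither pattern was particular to called members. Of all 90 tested members, 7 had OE below all other 9 libraries. The uncalled ones were ATP5F1C, ATP5MD, ATP5PD, NDUFA4 and UQCRC2. In 4 of the 90, OE_NC lay above all other 9, among them NDUFB4 and NDUFB7, which were not called in OE. Across the 90 tested members the change in OE had a Spearman coefficient of 0.44 with mean level and 0.18 with exon length, against 0.18 and 0.35 over all tested genes. Genes share libraries and depth, so these are descriptions.

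**Figure D5:**
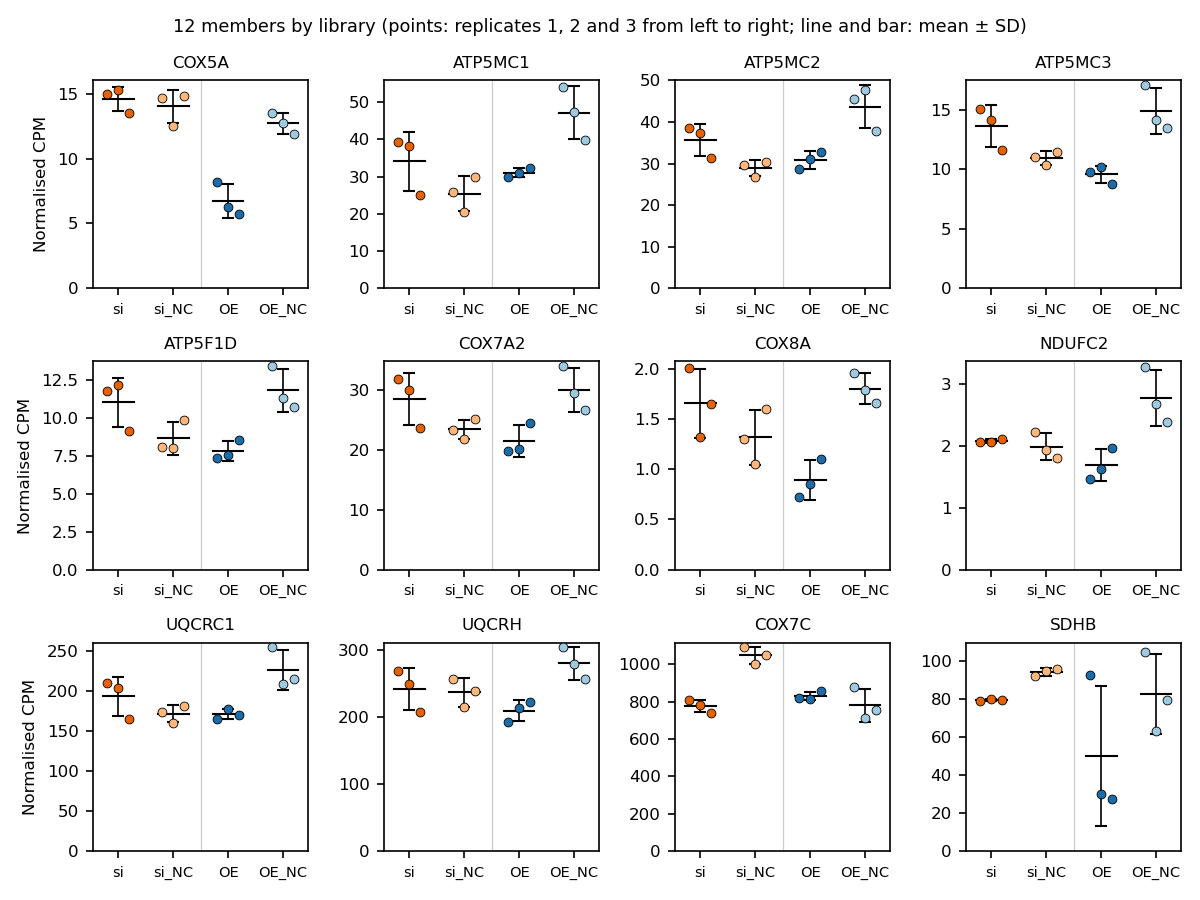
Normalised CPM (vertical axes, from 0) of 12 members in the si, si_NC, OE and OE_NC libraries (horizontal axes), with points for replicates and a line and bar for mean ± SD. COX5A sits at 5.73 to 8.20 CPM in OE and at 11.9 to 15.3 CPM in the other 9 libraries, and COX7C at 1001 to 1093 CPM in si_NC and at 711 to 880 CPM in the others.

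With the interfering RNA, COX7C fell and was the 1 member called of 90, against 2.54 percent of all tested genes that changed in si (1.62 percent fell and 0.92 percent rose). COX7C, the member with the highest level per length, had 807, 783 and 740 CPM in si, against 1093, 1001 and 1052 CPM in si_NC (log2 −0.43 ± 0.08, edgeR adjusted p = 0.0128). All 3 si libraries lay below the si_NC libraries. The si_NC libraries also lay above all OE and OE_NC libraries, so si_NC was the group that stood apart. The call ended without si replicate 2 or si_NC replicate 1 (adjusted p up to 0.0665, log2 −0.47 to −0.40), and in limma on log2 RPKM and a fit of si and si_NC alone. COX7C lies on chromosome 7 at 86288746 to 86290953 on the plus strand, and its exons sum to 450 bases.

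The rest of the chain showed no common direction in si. The median member had a log2 change of −0.006, against 0.02 over all genes, with 44 positive and 46 negative values. At an unadjusted p under 0.05 there were 20 members, 7 higher and 13 lower in si, where 18.9 percent of all genes passed. In 5 members (NDUFA7, NDUFA4, ATP5MC2, ATP5MC3 and ATP5MPL) all si libraries lay above all si_NC libraries and in 12 below (10.2 percent and 10.6 percent of all genes).

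None of the other complexes had a called member in si, and their smallest p-values fell on members of different roles. The assembly factor NDUFAF2 had 39.7, 40.4 and 33.4 CPM in si, against 62.2, 41.1 and 50.9 CPM in si_NC (log2 −0.44 ± 0.13, edgeR adjusted p = 0.0912). NDUFA7, an accessory subunit near the ubiquinone-binding part of complex I, had 3.81, 3.27 and 2.12 CPM in si, against 1.90, 2.07 and 2.04 CPM in si_NC (log2 0.61 ± 0.20, edgeR adjusted p = 0.12). ATP5PB, a peripheral stalk subunit of ATP synthase, had 183, 176 and 163 CPM in si, against 217, 190 and 221 CPM in si_NC (log2 −0.27 ± 0.09, edgeR adjusted p = 0.111). In each of these the groups did not overlap, by a small margin in NDUFAF2 and NDUFA7. The anchor SDHC of complex II (log2 −0.28 ± 0.12, edgeR adjusted p = 0.218) and UQCRQ of complex III (log2 −0.26 ± 0.11, edgeR adjusted p = 0.2) had the smallest p in their complexes.

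The c ring genes pointed up in si without passing the test. ATP5MC1 had 39.3, 38.2 and 25.0 CPM in si, against 25.8, 20.4 and 29.8 CPM in si_NC (log2 0.43 ± 0.16, edgeR adjusted p = 0.171). ATP5MC2 had 38.5, 37.3 and 31.4 CPM in si, against 29.5, 26.8 and 30.3 CPM in si_NC (log2 0.31 ± 0.11, edgeR adjusted p = 0.131). ATP5MC3 had 15.1, 14.1 and 11.7 CPM in si, against 11.0, 10.4 and 11.5 CPM in si_NC (log2 0.31 ± 0.12, edgeR adjusted p = 0.171). In all 3 the library nearest to si_NC was si replicate 3.

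The count in si moved with the libraries and with gene length. Without si replicate 3 there were 3 calls, 2 of them higher, and without si_NC replicate 2 there were 4, all lower. In these fits 4.09 percent and 6.45 percent of all tested genes were called. Without the 3 libraries that stood apart 10 members rose and 20 fell in si, where 16.0 percent of all genes were called. With the length offset 11 members fell and 0 rose, among them COX7C (log2 −0.55 ± 0.07), the assembly factor NDUFAF2 (−0.54 ± 0.11) and UQCRB (−0.42 ± 0.09), and the median became −0.10. Of all tested genes 6.71 percent were called in si with the offset, and 5.63 percent fell. The stromal markers summed to 18375 to 23024 CPM in si and 13674 to 18278 CPM in si_NC, and the epithelial markers to 2.47 to 3.52 CPM and 1.44 to 2.04 CPM. Of 9 tested stromal markers 1 rose in si, THY1 (log2 0.66 ± 0.14, edgeR adjusted p = 0.0263), and the 3 tested epithelial markers had a median log2 change of 1.01. Their part in the values of si was not tested.

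The change in OE was also tested against the change in si, as the difference of both in 1 model. It passed in 13 members, 1 positive and 12 negative, against 8.41 percent of all tested genes (4.29 percent positive and 4.12 percent negative). COX7C was the positive one (difference 0.52 ± 0.11 log2 units, edgeR adjusted p = 0.0115), from 0.09 in OE and −0.43 in si. Among the negative ones, ATP5MC1 differed by −1.03 ± 0.23 (edgeR adjusted p = 0.0154), ATP5MC2 by −0.81 ± 0.15 (0.00574), ATP5MC3 by −0.95 ± 0.17 (0.00524) and ATP5F1D by −0.95 ± 0.19 (0.00923). The other F1 head and stalk genes did not pass. ATP5F1C differed by −0.23 ± 0.11 (edgeR adjusted p = 0.222) and ATP5F1E by −0.04 ± 0.14 (0.894). For ATP5F1A the difference was 0.22 ± 0.10 (edgeR adjusted p = 0.181) and for ATP5F1B 0.09 ± 0.11 (0.691). COX5A differed by −0.98 ± 0.18 (0.0057), nearly all of it from OE, since its change in si was 0.06 ± 0.12. Both controls enter each difference, and they were not alike in several of these genes. In OE_NC relative to si_NC the log2 change was 0.89 for ATP5MC1, 0.60 for ATP5MC2, 0.44 for ATP5MC3 and 0.45 for ATP5F1D. It was −0.42 for COX7C and −0.14 for COX5A. The part of this control gap in the differences was not tested.

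The other negative differences were those of COX8A (−1.34 ± 0.34), COX7A2 (−0.77 ± 0.18), UQCRC1 (−0.57 ± 0.14) and 4 members that passed in neither response alone. These 4 were NDUFA7 (−0.96 ± 0.28), NDUFB1 of the distal membrane arm (−0.99 ± 0.29), the iron-sulphur subunit NDUFS8 (−0.70 ± 0.19) and ATP5MPL, a small proteolipid of the ATP synthase membrane part (−0.78 ± 0.19). Their edgeR adjusted p-values were 0.0483, 0.0482, 0.0381 and 0.0233. All 12 were negative in OE and positive in si.

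COX7C, COX5A, ATP5F1D and the 3 c ring genes kept this call without each of the 12 libraries in turn, and with the length offset. In both limma fits COX7C lost it, while the other 5 kept it. UQCRC1 also passed with the offset (−0.37 ± 0.11, edgeR adjusted p = 0.0461) but lost its call without si replicate 1, si replicate 2, OE replicate 1 or OE replicate 3. The other 6 lost it without at least 2 of the libraries and with the offset, under which 22 members were positive and 6 negative. Of all tested genes 11.1 percent passed for the difference with the offset, and 2.74 percent were negative. NDUFA7 and NDUFB1 also lost it with the size factors of DESeq2 and with a replicate block. Over the 90 members, 41 were higher in si and lower in OE, 16 the reverse, 30 lower in both and 3 higher in both. The share of all tested genes that were higher in si and lower in OE was 29.4 percent, and 24.8 percent were the reverse. The changes in OE and si, which share no library, had a Pearson coefficient of −0.55 across members and −0.16 across all genes.

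The plasmid control and the interference control differed in these genes no more often than in all tested genes. In OE_NC relative to si_NC, 9 members rose and 5 fell of 90 (15.6 percent called), against 19.7 percent of all tested genes that changed (9.49 percent rose and 10.2 percent fell). This contrast shares OE_NC and si_NC with those above, and the labels do not say whether both assays were run together, so transfected material and assay cannot be told apart. ATP synthase held 8 of the 14 calls. The c ring genes rose, with log2 changes of 0.89 ± 0.16 for ATP5MC1 (edgeR adjusted p = 0.00233), 0.60 ± 0.10 for ATP5MC2 (0.00174) and 0.44 ± 0.12 for ATP5MC3 (0.0181). ATP5F1D (0.45 ± 0.14, edgeR adjusted p = 0.03) and ATP5ME, a subunit of the dimer interface (0.43 ± 0.14, edgeR adjusted p = 0.0392), rose too. The head subunit ATP5F1A (−0.30 ± 0.07, edgeR adjusted p = 0.00769), ATP5PF of the peripheral stalk (−0.30 ± 0.09, edgeR adjusted p = 0.0294) and ATP5MG of the membrane part (−0.26 ± 0.08, edgeR adjusted p = 0.0357) fell.

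In complex I, NDUFA7 rose, with 4.20, 4.20 and 3.18 CPM in OE_NC, against 1.90, 2.07 and 2.04 CPM in si_NC (log2 0.95 ± 0.20, edgeR adjusted p = 0.00525). NDUFB7, a distal membrane arm subunit, rose by 0.61 ± 0.13 (edgeR adjusted p = 0.00643) and NDUFA13, a membrane arm subunit, by 0.31 ± 0.09 (edgeR adjusted p = 0.0331). The assembly factor NDUFAF1 fell by 0.35 ± 0.09 (edgeR adjusted p = 0.0175). In complex III, UQCRC1 rose by 0.40 ± 0.10 (edgeR adjusted p = 0.0114). COX7C fell, with 880, 711 and 754 CPM in OE_NC, against 1093, 1001 and 1052 CPM in si_NC (log2 −0.42 ± 0.08, edgeR adjusted p = 0.00226). Of the 14 genes, groups overlapped in ATP5PF alone. Without each of the 6 libraries in turn, COX7C, UQCRC1, ATP5MC1, ATP5MC2, NDUFA7, NDUFB7 and ATP5F1A kept their calls. In both limma fits ATP5F1A, ATP5PF, ATP5MG and NDUFAF1, of the 5 that fell, lost theirs. With the length offset 3 members rose (ATP5MC1, ATP5MC2 and NDUFA7) and 26 fell. Of all tested genes 23.3 percent were called between the controls with the offset, and 16.9 percent fell.

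Genes that work beside these subunits were counted from lists by name. Of the 13 subunits read from mitochondrial DNA, 9 fell in OE and 0 rose, with a median log2 change of −0.37. In si 8 rose and 0 fell, with a median of 0.31. Of all tested genes 2.25 percent fell and 2.22 percent rose in OE, and 1.62 percent fell and 0.92 percent rose in si. The largest changes were those of ATP8, a subunit of the ATP synthase membrane part, with 1524 ± 70 CPM in OE against 2544 ± 155 CPM in OE_NC (log2 −0.74 ± 0.06), and 2756 ± 23 CPM in si against 1916 ± 75 CPM in si_NC (log2 0.52 ± 0.06; mean ± SD, n = 3 each). Of the 48 tested assembly factors that the naming rule does not take, 0 passed in OE and 0 in si by edgeR, with medians of −0.15 and −0.07. At an unadjusted p under 0.05 there were 15 in OE and 3 in si. The Wald test of DESeq2 called 3 and 2, all lower, and limma on log2(RPKM + 1) called 2 and 0. With the length offset 5 of these factors rose in OE and 3 fell in si, and the mitochondrially encoded calls shrank to 1 in OE and 1 in si. With that offset 3.31 percent of all tested genes were called in OE and 6.71 percent in si.

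Of 17 genes of the tricarboxylic acid cycle, which feeds electrons to complexes I and II, 1 fell in OE, the malate dehydrogenase MDH2 (log2 −0.39 ± 0.10, edgeR adjusted p = 0.0474), a call that ended with the length offset. In si, CS, the citrate synthase that starts the cycle, rose to 34.8 ± 1.6 CPM, against 24.7 ± 1.7 CPM in si_NC (log2 0.49 ± 0.08, edgeR adjusted p = 0.00786). IDH3A, the catalytic subunit of the NAD-linked isocitrate dehydrogenase, fell to 164 ± 3 CPM in si, against 232 ± 26 CPM in si_NC (log2 −0.50 ± 0.09, edgeR adjusted p = 0.00973). Of 14 regulators of respiratory genes, HIF1A, which redirects metabolism at low oxygen, rose in OE (log2 0.44 ± 0.08, edgeR adjusted p = 0.0166). In OE the Wald test of DESeq2 called 1 regulator higher and 1 lower, and limma on log2(RPKM + 1) called 1 higher and 0 lower. In si 0 regulators passed by edgeR, DESeq2 or limma, while 3 had an unadjusted edgeR p under 0.05. Neither cytochrome c gene and none of the 4 tested uncoupling proteins and nucleotide carriers passed by edgeR in OE or si. In either list and either contrast 1 gene had an unadjusted p under 0.05. DESeq2 called 0 genes of these lists in OE, and in si 1 of each, while limma on log2(RPKM + 1) called 0.

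Overlap with other genes touches few of these values. In the coordinates of the count table, 15 members share exon bases with another gene, all on the opposite strand, and 4 of them with a more abundant one. These are NDUFA1 with RNF113A (337 of 579 bases), NDUFA2 with TMCO6 (313 of 554), NDUFAF7 with PRKD3 (348 of 3318) and NDUFA4L2 with SHMT2 (28 of 997). Of the 4, NDUFA4L2 was not tested and the others were not called in any contrast. Among the called members, ATP5PF shares 174 of 1214 bases with GABPA and UQCRH 19 of 1015 with LRRC41. Libraries were stranded per the labels, but the sources used here do not give the strand used in counting, so such reads may be counted with either gene. Respiratory chain genes also have processed pseudogenes in mammals, and how reads that map to several places were counted is not given, so levels of members with close copies are uncertain.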

How the data were processed

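The authors deposited read counts per gene and RPKM for 12 libraries of polyadenylated RNA. The deposited counts carry no normalisation by the authors, and 66.2 to 69.3 percent of nonzero counts were even. Deposited RPKM could be rebuilt from counts, summed exon length and library total (largest relative difference 6.6e-14). Per the submitters' processing notes, fastp 0.23.0 and featureCounts of Subread 1.5.1 were used. Which aligner, build and strand setting were used, and how multi-mapping reads were treated, is not given in the sources used here. Each of the 12 columns matched 1 sample, so 0 columns stayed unmapped. Left out were 2 entries without a gene name, which took 0.087 to 0.116 percent of counts.

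Tests on the counts used edgeR 4.0.16 (R 4.3.3): filterByExpr (minimum count 10, minimum total 15), TMM scaling, the quasi-likelihood F test on 1 fit of all 12 libraries with 4 group means and 8 residual degrees of freedom, and Benjamini-Hochberg adjustment over 16300 genes. SE is the log2 change over the root of F. Normalised CPM uses the TMM library sizes. The procedure was tested on simulated data that held no library standing apart and no trend with exon length. That test therefore cannot speak to either feature. All replicate pairs differed by more than counting noise. The fit has no replicate block. DESeq2 1.42.0, limma 3.58.1 and a natural spline of 4 degrees of freedom on exon length served as alternatives.

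The members and gene lists were chosen with earlier results of these data known. Members named are those called in any contrast, the highest and lowest of each complex per length, tissue isoforms, and the smallest p in complexes with no call; other members are named for their role, their overlaps or, in the last section, after their values were seen. Of the other lists, genes past the threshold are named, at most 4 a list. Symbols of 94 members, 3 of them by an older symbol, matched a RefSeq gene table. Sequences and promoters were not analysed here.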

Additional observations from a re-analysis of the deposited data

Results flagged for a closer look

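The change in OE relative to OE_NC differed from the change in si relative to si_NC, tested as an interaction in edgeR with Benjamini-Hochberg adjustment over all genes, in 13 members. Their differences in log2 units, OE response minus si response, were as follows. In ATP synthase they were −1.03 for ATP5MC1, −0.81 for ATP5MC2, −0.95 for ATP5MC3, −0.95 for ATP5F1D and −0.78 for ATP5MPL. In complex IV they were −0.98 for COX5A, −0.77 for COX7A2, −1.34 for COX8A and 0.52 for COX7C. In complex III the difference was −0.57 for UQCRC1, and in complex I it was −0.96 for NDUFA7, −0.99 for NDUFB1 and −0.70 for NDUFS8. In COX7C the change was 0.09 in OE and −0.43 in si, and in the other 12 members it was negative in OE and positive in si. Both controls enter these differences. OE_NC was called higher than si_NC in ATP5MC1 (log2 0.89), ATP5MC2 (0.60), ATP5MC3 (0.44), ATP5F1D (0.45), NDUFA7 (0.95) and UQCRC1 (0.40), and lower in COX7C (−0.42). The remaining members were not called between the controls. The part of the controls in the differences was not tested.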

How the results depend on the processing

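Values of single named members were recomputed under each alternative. Sign and side of the threshold were kept by 674 of 762 values in si, 563 of 719 in OE, 828 of 981 for the difference and 625 of 765 for the controls. A sign change with no call in either fit was found in 48, 63, 41 and 34 values in that order. A sign change with a call in at least 1 fit was found in 4 values, all with the offset for the trend on exon length: ATP5IF1 in OE (log2 0.27), and in OE_NC relative to si_NC NDUFA13 (−0.021), ATP5IF1 (−0.20) and NDUFA4 (−0.25). Over all 90 tested members that offset changed the sign in 21 in si, 33 in OE, 30 for the difference and 35 for the controls. Counts of called members moved by over 1.5 times as follows. In si (1 call) there were 3 with the Wald test of DESeq2, 9 with no filter on low counts, 0 in a fit of si and si_NC alone, 0 in both limma fits (1 or 0.1 added to RPKM), 11 with the length offset, 4 without si replicate 3 and si_NC replicate 2 together, and 0 to 4 leaving out 1 library. In OE (10 calls, all lower) there were 20 with no filter and 1 to 10 leaving out 1 library; with the length offset 11 passed, 10 higher and 1 lower, and the median log2 change of tested members in OE minus OE_NC became 0.042. For the difference of responses (13) there were 22 with library totals, 21 with no filter, 28 with the offset (22 positive) and 7 to 19 leaving out 1 library, and the median (−0.10) became −0.23 with library totals, −0.21 and −0.22 in limma and 0.17 with the offset. For the controls (14) there were 23 with library totals, of which 21 rose, 22 with no filter, 29 with the offset (26 lower) and 7 to 16 leaving out 1 library, and the median (0.12) became −0.15 with the offset. The fit without si replicate 3, si_NC replicate 2 and OE_NC replicate 1 was chosen after seeing the data and gave 30 in si, 18 in OE (12 lower), 35 for the difference and 32 for the controls. In that fit 16.0, 12.9, 20.5 and 29.8 percent of all tested genes were called in the same order. Library totals and limma with 0.1 added moved the median of all genes in the difference by −0.14 and −0.12. Calls over all tested genes moved too. With no filter 4.13 percent were called in si, 5.74 percent in OE, 6.6 percent for the difference and 12.5 percent for the controls. With the offset these shares were 6.71, 3.31, 11.1 and 23.3 percent. Leaving out 1 library they were 0.334 to 6.45, 0.113 to 4.54, 3.53 to 12.8 and 11.3 to 16.9 percent. Library totals gave 9.41 percent for the difference and 19.9 percent for the controls. The cause of these moves was not tested. With a replicate block 1 member passed in si, 11 in OE, 11 for the difference and 19 for the controls. Of all tested genes 2.43, 4.93, 7.65 and 19.3 percent passed with the block. No pairing by replicate number was seen, though 3 libraries per group cannot exclude it. Deviations of same-numbered libraries correlated at −0.26 to 0.09 for si with si_NC and −0.01 to 0.04 for OE with OE_NC. For OE_NC with si_NC they correlated at −0.12 to 0.19, and not every library correlated best with its own number. Depth limits the lowest called members: COX8A rests on 26 to 74 counts per library and NDUFC2 on 53 to 120.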

Other observations

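Among tested members, SDHB and NDUFS6 varied more between libraries of 1 group than any other apart from COX4I2 and COX7B2, which averaged 0.225 and 0.279 CPM. Both were chosen after their values were seen. The within-group SD of log2 CPM was 0.52 for SDHB and 0.44 for NDUFS6, a subunit of the NADH-oxidising module, against a median of 0.16 over tested members. NDUFS6 had 52.8, 24.5 and 20.5 CPM in OE, against 70.3, 35.5 and 46.8 CPM in OE_NC, and 58.4, 64.7 and 56.7 CPM in si, against 85.0, 76.2 and 78.1 CPM in si_NC. SDHB had 79.0, 80.3 and 79.5 CPM in si, against 92.2, 95.0 and 95.9 CPM in si_NC. Both genes were highest in replicate 1 within OE and within OE_NC, and in both the si libraries lay below the si_NC libraries. Neither passed a test in OE (edgeR adjusted p = 0.204 for SDHB and 0.186 for NDUFS6) or in si (0.735 and 0.445).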
